A study of Homo sapiens with 19 samples.

Results

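Messenger RNA of the receptors for interleukin 4 (IL4) and interleukin 13 (IL13) was followed in 19 cell lines. They were the parental human breast cancer line MDA-MB-231, metastatic lines and ploidy sublines. The labels do not say how the metastatic lines were derived. The members were 4 of the 11963 genes with a probe set of their own on the platform, IL13RA2, IL13RA1, IL4R and STAT6, read by the probe sets annotated to 1 of them alone, 8 of the 22283 in the deposited values. IL13RA2 had 1 probe set, IL13RA1 had 4, IL4R had 1 and STAT6 had 2, and all 8 passed the filter on low values. Each line was measured once on an Affymetrix expression array, so every value below is 1 array. In a series whose title names spontaneous doubling of ploidy, the hyper-ploid subline 1833-Hyper was set against the modal-ploid 1833-Modal, and likewise 4175-Hyper against 4175-Modal, each pair from the line it is named for. The 4 strongly bone-metastatic lines 1833, 2274, 2268 and 2269 were set against the 3 weakly bone-metastatic lines 2293, 2295 and 2296. The 4 strongly lung-metastatic lines 4142, 4173, 4175 and 4180 were set against the 3 weakly lung-metastatic lines SCP21, SCP6 and SCP26. The parental MDA-MB-231 line had 1 array. All lines were grown in the same serum-containing medium with the selective drugs each required, and none was treated with either cytokine according to the labels. The weak bone line titled 2296 is called 2297 in its own cell line label. The labels do not say whether a line is 1 clone, so p-values below measure only the spread between lines.

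IL4 and IL13 are cytokines made mainly by T helper cells and innate lymphoid cells. IL4R pairs with the gamma chain IL2RG to bind IL4, or with IL13RA1 to bind either cytokine, and Janus kinases on these chains then phosphorylate STAT6, which enters the nucleus and switches on target genes. IL13RA2 binds IL13 very tightly, has a short cytoplasmic tail and is best known as a decoy that takes IL13 away from IL13RA1, although signalling through it has also been described. IL13RA2 belongs to a published lung metastasis gene signature derived from sublines of MDA-MB-231, so its pattern in the lung lines is not independent evidence of that signature.

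Levels are signals recovered from the deposited ratios and scaled so that every array had a median of 143.3. The deposited ratios fell into 2 separately divided sets. The first held 10 arrays, the parental line, the 1833 pair and the bone lines, and the second held 9 arrays, the 4175 pair and the lung lines. Comparisons were therefore made within a set. A probe set was called above background where it exceeded its own array's 40th percentile, which lay between 71.7 and 94.2 on the scaled arrays. Differences are on the log2(signal + 16) scale and come from limma fits over 16282 probe sets, with Benjamini-Hochberg adjusted p-values over all of them and a threshold of 0.05. In such bulk RNA, fewer cells carrying a transcript and less of it per cell cannot be told apart. The epithelial and mesenchymal line markers VIM, CD44, KRT18, CAV1 and AXL were above background on 19 of 19 arrays, and of 5 markers listed as low in such lines, the progesterone receptor PGR was above it on 0, the epithelial cadherin CDH1 on 1, the oestrogen receptor ESR1 on 16, and ERBB2 and EPCAM on 19. Of 10 leukocyte markers with a probe set of their own, the common leukocyte antigen PTPRC and ITGAX were above background on 0 arrays. The others were above it on some, CD2 on 16, ITGAM on 14, CD14 on 13, CSF1R on 12, CD3D and CD79A on 7 each, CD163 on 3 and MS4A1 on 2. Before scaling, the mean log2 signal of 7 spike-in probe sets was 8.34 to 8.69 on the 4 ploidy arrays, 9.03 to 9.83 on the lung arrays and 10.3 to 10.6 on the parental and bone arrays. Within the lung set the spike-in means were 9.31 to 9.83 in strong lines and 9.03 to 9.58 in weak lines. Within the bone set they were 10.3 to 10.6 in strong lines and 10.3 to 10.5 in weak lines.

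IL4R, the shared signalling chain, and 1 of the 2 probe sets of STAT6, the factor it activates, were called lower in the strong bone lines. The promoters of both genes are shown for that reason. The STAT6 call was lost when some of the bone lines were left out. The windows run from 250 bases before to 50 bases after the RefSeq gene start on GRCh38.p14, IL4R at chr16:27313724-27314023 on the plus strand and STAT6 at chr12:57110240-57110539 on the minus strand. Capitals mark the GC box GGGCGG on either strand.
IL4R promoter: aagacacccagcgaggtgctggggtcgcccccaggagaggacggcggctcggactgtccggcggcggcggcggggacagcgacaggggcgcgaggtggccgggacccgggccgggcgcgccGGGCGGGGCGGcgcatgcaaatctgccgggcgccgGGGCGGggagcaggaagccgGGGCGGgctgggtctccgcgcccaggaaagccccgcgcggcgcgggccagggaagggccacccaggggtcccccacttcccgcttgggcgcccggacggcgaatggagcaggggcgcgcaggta
STAT6 promoter: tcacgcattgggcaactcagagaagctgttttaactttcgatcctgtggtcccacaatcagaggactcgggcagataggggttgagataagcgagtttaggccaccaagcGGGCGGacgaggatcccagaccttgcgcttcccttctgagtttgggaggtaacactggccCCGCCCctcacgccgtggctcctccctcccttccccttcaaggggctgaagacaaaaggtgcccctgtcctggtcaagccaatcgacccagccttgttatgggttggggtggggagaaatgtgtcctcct
The IL4R window held 4 GC boxes, which began at −129, −124, −94 and −74 relative to the start, the first pair sharing 1 base. The STAT6 window held 2, beginning at −140 and −80. The GC content was 79.3% for IL4R and 57.7% for STAT6, against a median of 58.7% over 35116 RefSeq promoter windows of the same length. A GC box was found in 45.0% of those windows. The STAT-type motifs TTCNNNNGAA (in 6.44% of windows) and TTCNNNGAA (7.66%) and the AP-1 motif TGANTCA (7.71%), searched on both strands, had no match in the IL4R or STAT6 window. RefSeq windows were matched for 3 of the 4 genes, IL13RA1, IL4R and STAT6, and the IL13RA1 window also held 4 GC boxes and none of the other motifs.

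IL13RA2 transcript was high in strong lung lines and near the floor in weak lung lines. Its signal was 229.9 in 4142, 3210.4 in 4173, 4138 in 4175 and 1472 in 4180, against 55.5 in SCP21, 7.05 in SCP6 and 48.3 in SCP26. The groups did not overlap, and 4142 was the lowest strong line. All 4 strong lung lines were above background and all 3 weak lung lines were below it, so only a lower bound on the fold can be given. The means were 2263 ± 1749 (SD, n = 4) in strong lung lines and 36.9 ± 26.1 (SD, n = 3) in weak lung lines. With each weak line raised to its array's 40th percentile, IL13RA2 was at least 14.7-fold higher in strong lung lines on the log2(signal + 16) scale. The fitted difference was 4.98 (SE 0.73, 95% interval 3.41 to 6.54, adjusted p = 0.00116 by limma). Its SE pools lung and bone groups of unlike spread. The SD on that scale was 1.84 in strong and 0.90 in weak lung lines, but 0.30 in strong and 0.32 in weak bone lines. With only the 7 lung lines fitted, the same difference had an SE of 0.88 and an adjusted p of 0.0185 by limma. That difference was larger in size than the differences of 99.98% of the probe sets tested.

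The position of 4142 carried weight in this value. Without it the fitted IL13RA2 difference was 5.84, and leaving out each of the 7 lung lines in turn gave 4.46 to 5.84 with adjusted p-values of 1.98e-05 to 0.00702. On the log2 scale of the deposited ratios, with no offset, the difference was 5.77. Some fibroblast and endothelial markers also differed between these groups. The summed signal of the 6 probe sets listed was 912 to 1087 in strong lung lines and 515 to 629.6 in weak lung lines. Its largest part was the collagen COL1A1, with means of 615 in strong and 305 in weak lung lines. Of 3 tested members 2 passed by limma, COL1A1 (1.004, adjusted p = 0.0167) and the adhesion molecule PECAM1 (1.13, adjusted p = 0.0147), beside 7.82% of all probe sets. The endothelial markers VWF and CDH5 were above background on 0 of 19 arrays, and PDGFRB on 1. The part of these cell types in the IL13RA2 result was not tested. The 10 leukocyte probe sets summed to 665 to 874 in strong lung lines and 415 to 1015 in weak lung lines. Of 8 tested members 0 were called by limma in lung or bone, beside 7.82% and 10.5% of all probe sets.

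**Figure D1:**
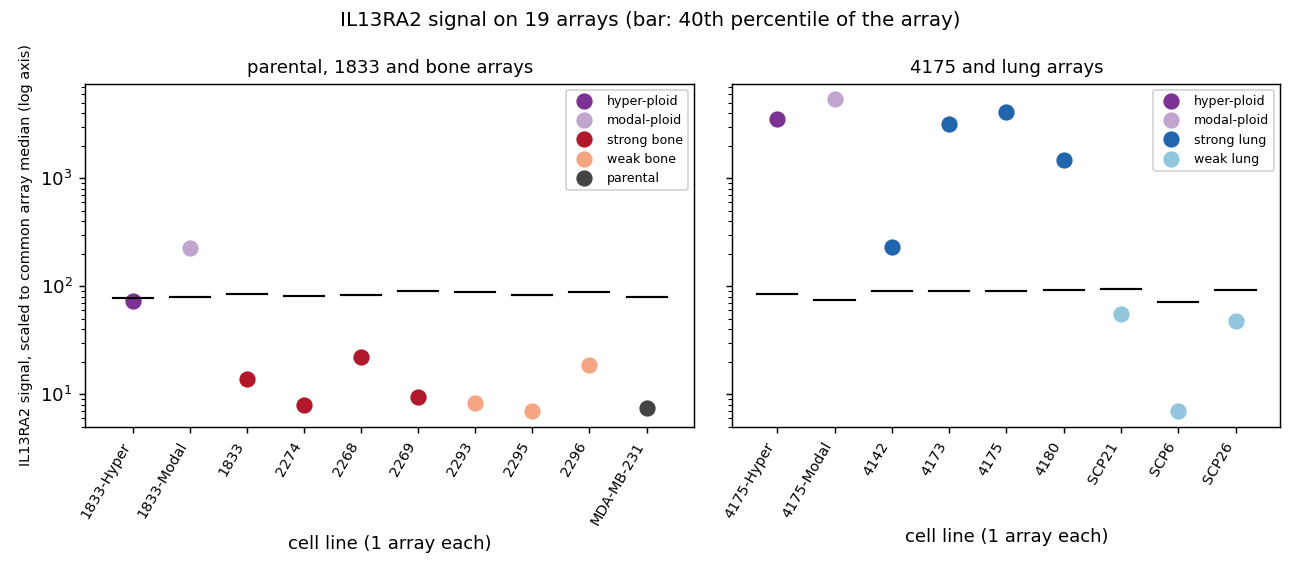
Scaled IL13RA2 signal on a log axis for each of the 19 arrays, with a black bar at the array's 40th percentile. The left panel holds the 1833 pair, strong bone, weak bone and parental arrays, and the right panel the 4175 pair, strong lung and weak lung arrays. In the right panel the weak lung lines lie below the bar and the others above it, and in the left panel 1833-Modal at 226 is the 1 array above it.

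IL13RA2 stayed below background in every bone line. The signals were 13.96 in 1833, 8.02 in 2274, 22.4 in 2268 and 9.46 in 2269, against 8.25 in 2293, 6.96 in 2295 and 18.5 in 2296. The parental line had 7.47. The strong and weak ranges overlapped, and the fitted difference of 0.11 (SE 0.73, 95% interval −1.46 to 1.68, adjusted p = 0.946) compares values below background. That SE is shared with the more widely spread lung lines. With only the 7 bone lines fitted it was 0.23 (adjusted p = 0.803 by limma). The strong-against-weak difference in lung minus that in bone was 4.86 (SE 1.03, adjusted p = 0.00886 by limma), and 5.73 without 4142. With all 19 arrays in the fit, where the 2 ploidy groups each mix both lines of origin, the same 4.86 had an adjusted p of 0.0721.

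In the 4175 pair IL13RA2 was well above background, with 3562 in 4175-Hyper and 5384 in 4175-Modal, beside 4138 in the original 4175 line. In the 1833 pair it was 72.7 in 1833-Hyper and 226 in 1833-Modal, beside 13.96 in the original 1833 line. The deposited ratios gave 6.21 for 1833-Hyper, 19.3 for 1833-Modal and 1.19 for the original 1833. The hyper-ploid subline was the lower of each pair, by −1.45 in the 1833 pair and −0.59 in the 4175 pair. Since 1833-Hyper was not above its array's 40th percentile of 78.5, the size of the 1833 difference, and of the joint value built on it, is set against a level below background. The difference within line of origin was −1.02 (SE 0.30, 95% interval −1.68 to −0.36, unadjusted p = 0.00621 from the limma model, adjusted p = 0.617). It did not pass, with only 1 residual degree of freedom in this comparison. None of the 8 members was called here, where 0 of 16282 probe sets passed (0.0%) and 818 had an unadjusted p under 0.05. IL13RA2 was the 1 member with an unadjusted p under 0.05. The other 7 members differed by −0.03 to 0.35 in that fit. IL4R took opposite directions in the pairs, at 387 in 1833-Hyper against 291 in 1833-Modal and 219 in 4175-Hyper against 305 in 4175-Modal.

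Over the 9 arrays of the second set IL13RA2 spanned 7.87 log2 units, and over the 10 arrays of the first set 3.40. It lay above background on 7 of 19 arrays, those of the 4 strong lung lines, the 4175 pair and 1833-Modal. From high to low the second set ran 4175-Modal, 4175, 4175-Hyper, 4173, 4180, 4142, SCP21, SCP26 and SCP6. The single arrays at the top, 4175-Modal to 4173, have no spread of their own, so their order is a description. Both spans end below background, at SCP6 and at 2295, so they are not measured ranges. IL4R spanned 1.88 and 1.41 log2 units in the first and second set, and the widest span among the IL13RA1 probe sets was 2.28.

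IL4R, the chain shared by both signalling receptors, was lower in strong bone lines. Its signal was 235 in 1833, 219.6 in 2274, 307 in 2268 and 249 in 2269, against 644 in 2293, 480.5 in 2295 and 852 in 2296. The groups did not overlap, and the parental line at 348 lay between them. The means were 253 ± 38.4 (SD, n = 4) in strong bone lines and 659 ± 186 (SD, n = 3) in weak bone lines. The difference was −1.30 (SE 0.24, 95% interval −1.81 to −0.79, adjusted p = 0.00395 by limma), a 2.46-fold lower level in strong lines. It passed in all 7 fits that left out 1 bone line, at −1.50 to −1.10.

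In the lung lines IL4R was 609 in 4142, 354 in 4173, 491.5 in 4175 and 458 in 4180, against 385 in SCP21, 484 in SCP6 and 307 in SCP26. These ranges overlapped. The difference of 0.27 (SE 0.24, adjusted p = 0.550) did not pass, and its 95% interval ran from −0.23 to 0.78. The lung difference minus the bone difference was 1.58 (SE 0.33, adjusted p = 0.00878), so the IL4R contrast itself differed between the bone and lung lines.

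STAT6 was measured by 2 probe sets. For 201331_s_at the signal was 1162 in 1833, 1384 in 2274, 1330.5 in 2268 and 739 in 2269, against 1858 in 2293, 1940.2 in 2295 and 2252 in 2296. The groups did not overlap, and the parental value of 1663 lay between them, as for IL4R. The difference was −0.83 (SE 0.22, 95% interval −1.31 to −0.35, adjusted p = 0.0304 by limma), a 1.78-fold lower level in strong lines. Leaving out some lines ended this call. The adjusted p was 0.0688 without 2293, 0.0799 without 2295, 0.111 without 2296, 0.0595 without 1833 and 0.0658 with only the 7 bone lines in the fit.

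The second STAT6 probe set, 201332_s_at, had 203 in 1833, 54.4 in 2274, 236 in 2268 and 174 in 2269, against 170.1 in 2293, 244 in 2295 and 294 in 2296. Its groups overlapped, and 2274 was low enough to fall below its array's 40th percentile. The difference of −0.58 (SE 0.37, adjusted p = 0.344) had the same sign as that of the first probe set without passing. In the lung lines the STAT6 differences were 0.13 (SE 0.22, 95% interval −0.36 to 0.61, adjusted p = 0.802) for 201331_s_at and 0.32 (SE 0.37, 95% interval −0.47 to 1.11, adjusted p = 0.669) for 201332_s_at. The lung-minus-bone difference for 201331_s_at, 0.96, had an adjusted p of 0.0693 and did not pass.

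**Figure D2:**
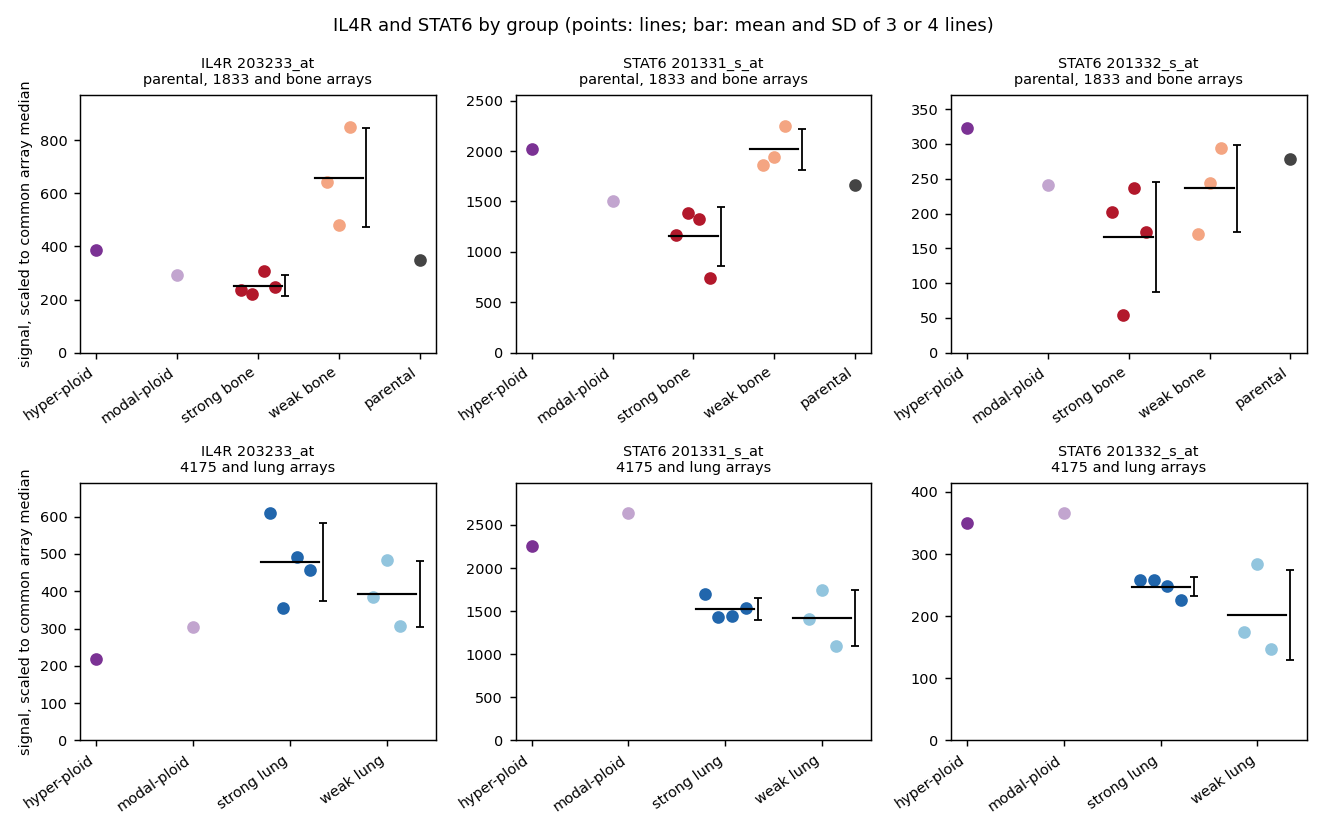
Scaled signal of IL4R and of the 2 STAT6 probe sets by group, on linear axes from 0, with points for lines and bars for the mean and SD of 3 or 4 lines. The upper row shows the first array set and the lower row the second. For IL4R and STAT6 201331_s_at the strong bone points all lie below the weak bone points, with the parental line between them, and the lung groups overlap.

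Across the 10 arrays of the first set IL4R and STAT6 201331_s_at had a Pearson r of 0.75 and a Spearman rho of 0.84. Across the 9 arrays of the second set r was −0.30 and rho −0.15. These arrays share the study's groups and their scaling, so the values describe the lines only. The fibroblast and endothelial probe sets summed to 530.5 to 897 in strong bone lines and 785 to 1125 in weak bone lines, with PECAM1 lower in strong lines (−1.60, adjusted p = 0.00174). The leukocyte probe sets summed to 539.7 to 941 in strong bone lines and 765 to 887 in weak bone lines. Their part in the IL4R and STAT6 results was not tested.

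IL13RA1, the chain that joins IL4R to form the receptor for both cytokines, had 4 probe sets, and their lung differences were all negative while their bone differences were mixed. For 201887_at the signal was 587 in 4142, 634 in 4173, 678 in 4175 and 515 in 4180, against 853 in SCP21, 1266 in SCP6 and 882 in SCP26. The groups did not overlap. The difference was −0.70 (SE 0.20, 95% interval −1.13 to −0.26, adjusted p = 0.0499 by limma), a 1.62-fold lower level in strong lung lines that passed by the narrowest margin. It did not pass when any 1 of the 7 lung lines was left out, with adjusted p-values of 0.0515 to 0.168.

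The other IL13RA1 probe sets did not pass in the lung lines. Probe set 211612_s_at had 250.02 in 4142, 317 in 4173, 310 in 4175 and 346 in 4180, against 380.1 in SCP21, 525 in SCP6 and 426 in SCP26. Its groups did not overlap, with a difference of −0.51 (SE 0.16, adjusted p = 0.0734). Probe sets 201888_s_at (−0.64, adjusted p = 0.305) and 210904_s_at (−0.77, adjusted p = 0.187) had overlapping groups.

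In the bone lines 211612_s_at ran the other way, with 566 in 1833, 605 in 2274, 604 in 2268 and 612 in 2269, against 424 in 2293, 418 in 2295 and 475 in 2296. The groups did not overlap, yet the difference of 0.43 (SE 0.16, adjusted p = 0.110) did not pass. Its lung-minus-bone difference of −0.94 (SE 0.23, adjusted p = 0.0193) passed. That call was lost without the weak bone line 2295 (adjusted p = 0.0521) and with all 19 arrays in the fit (adjusted p = 0.0806). Bone differences for the other IL13RA1 probe sets were −0.19 for 201887_at (adjusted p = 0.602), 0.73 for 201888_s_at (adjusted p = 0.203) and 0.61 for 210904_s_at (adjusted p = 0.260).

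**Figure D3:**
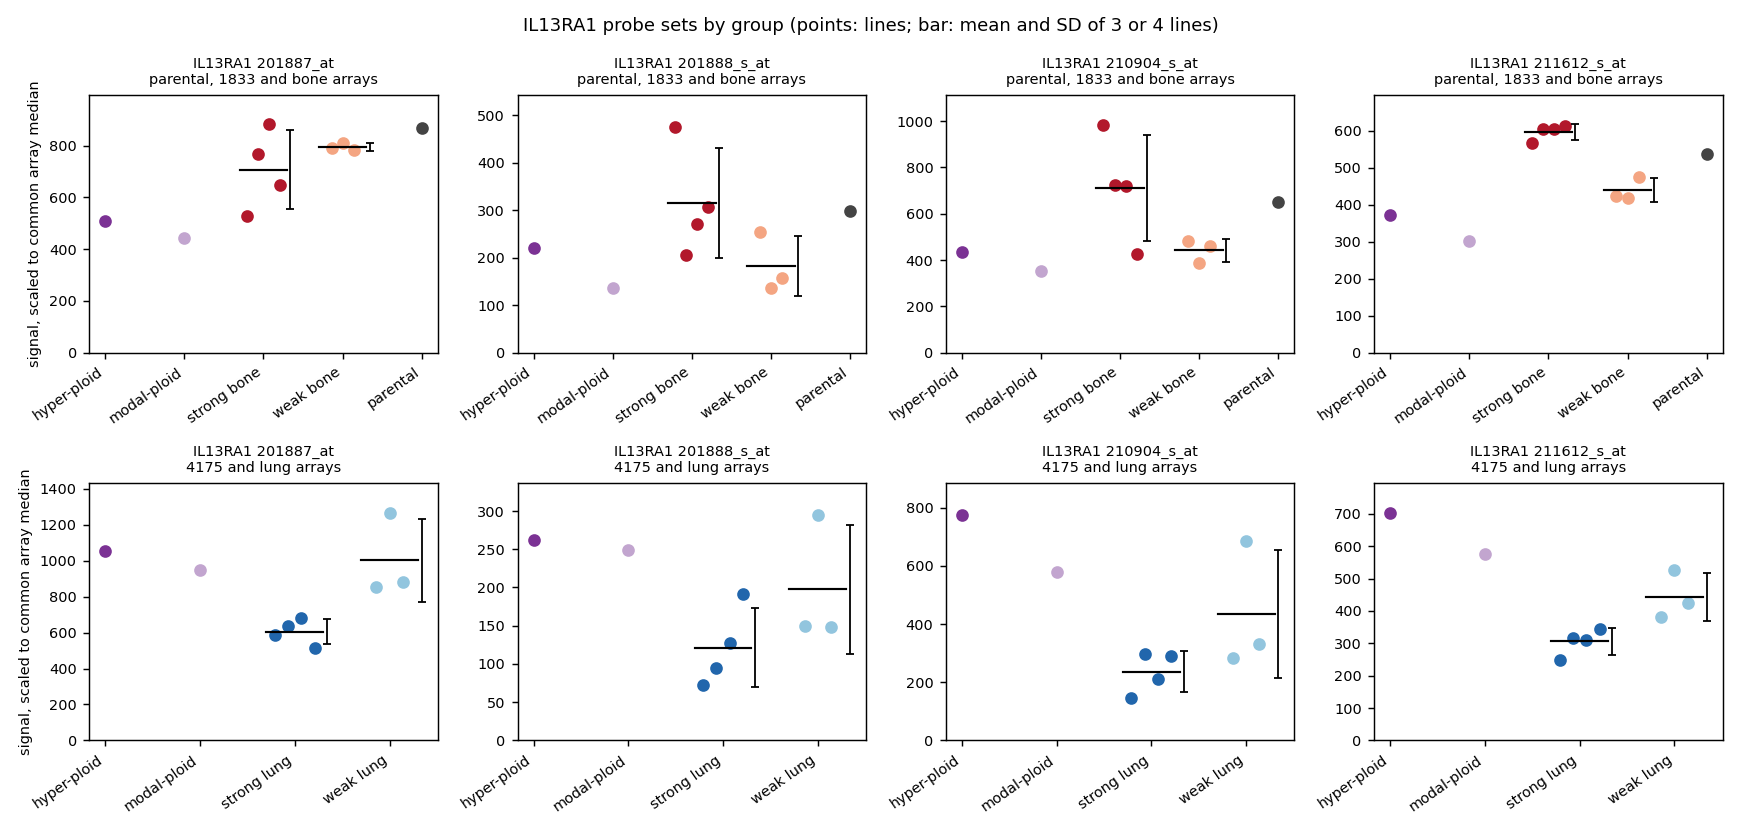
Scaled signal of the 4 IL13RA1 probe sets by group, on linear axes from 0, with points for lines and bars for the mean and SD of 3 or 4 lines. The upper row shows the first array set and the lower row the second. For 211612_s_at strong bone lines lie at 566 to 612 above weak bone lines at 418 to 475, and strong lung lines at 250.02 to 346 below weak lung lines at 380.1 to 525.

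The IL13RA1 probe sets tracked one another in the second set, where pairwise r was 0.72 to 0.96. In the first set the pairs ranged from −0.01 to 0.75, the lowest between 201887_at and 201888_s_at. Probes with the _s_at suffix can hybridise to several transcripts of a gene, and which transcripts each probe set reads was not examined here.

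Counted together, 2 of the 8 members passed in the bone lines, 0 higher and 2 lower, beside 10.5% of all probe sets called (6.4% higher and 4.12% lower, a split that moves with the scaling of the arrays). In the lung lines 1 was higher (IL13RA2) and 1 lower (IL13RA1 201887_at), beside 7.82% called (3.12% higher and 4.7% lower, a split that turned without SCP6, at 574 higher and 419 lower). The lung-minus-bone test called 3 members, 2 higher and 1 lower, beside 10.9% called (4.26% higher and 6.64% lower). Groups did not overlap for 3 members in bone and 3 in lung, where 26.6% and 18.9% of all probe sets had groups that did not overlap. The median difference of the 8 members was −0.04 in bone and −0.19 in lung, against 0.03 and −0.01 over all probe sets. Since 4 of the 8 probe sets read 1 gene, these counts do not describe 8 independent transcripts.

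**Figure D4:**
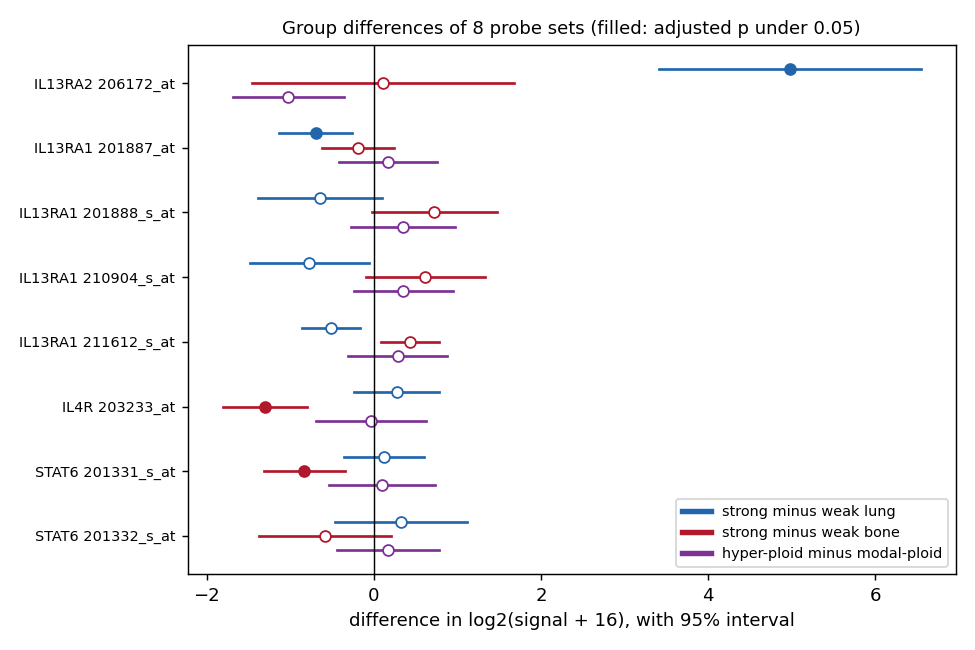
Fitted differences of the 8 probe sets in log2(signal + 16), with 95% intervals, for strong minus weak lung lines, strong minus weak bone lines and hyper-ploid minus modal-ploid sublines. Filled points passed an adjusted p of 0.05. IL13RA2 in the lung lines stands at 4.98, and the next in size is IL4R in the bone lines at −1.30.

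The rest of the pathway was described from a list of 44 genes, of which 41 had a probe set of their own and 33 were tested, 1 probe set a gene. The ligand IL4 was above background on 0 of 19 arrays. IL13 was above it on 14 of 19, at mean signals of 91.9 in strong bone lines and 29.8 in weak bone lines. All 3 weak bone lines were below background for IL13, so its called difference (1.18, adjusted p = 0.0134) gives a lower bound of only 1.002-fold. In the lung lines IL13 averaged 118 in strong and 124 in weak lines and did not pass (−0.05, adjusted p = 0.951).

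In the bone lines 5 of the 33 genes were higher and 1 lower, beside 6.4% higher and 4.12% lower over all probe sets. SOCS2, an inhibitor of cytokine receptor signalling, was highest in difference, with means of 686 in strong and 98.8 in weak bone lines (2.62, SE 0.21, adjusted p = 1.27e-05). It also passed in the lung lines, at 529.9 in strong and 298 in weak lines (0.78, adjusted p = 0.0316). SOCS5, another member of that inhibitor family, was 959 in strong and 462 in weak bone lines (1.06, adjusted p = 0.0168). The kinase JAK2 was 104 in strong and 43.0 in weak bone lines, with the weak lines all below background, so it was at least 1.16-fold higher (1.02, adjusted p = 0.0289). GATA3, a transcription factor that STAT6 induces in T cells, was 657 in strong and 309 in weak bone lines (1.13, adjusted p = 0.0150). The phosphatase PTPN6 was the gene that fell, at 161 in strong and 258 in weak bone lines (−0.64, adjusted p = 0.0229).

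In the lung lines 2 of the 33 pathway genes were higher and 1 lower, beside 3.12% higher and 4.7% lower over all probe sets, so these counts were near the background. SPDEF, an epithelial transcription factor that IL13 induces in airway cells, was 636 in strong and 146 in weak lung lines (2.49, SE 0.50, adjusted p = 0.00769). Its probe set, 213441_x_at, carries the suffix for probes that may match other sequences. TGM2, a transglutaminase induced by IL4 and IL13 in human monocytes, was 1572 in strong and 3412 in weak lung lines (−1.13, SE 0.19, adjusted p = 0.00299). GATA3 in lung did not pass (−0.90, adjusted p = 0.0522).

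The chain and kinases that complete the receptors did not pass in either metastasis comparison apart from JAK2 in bone. IL2RG differed by −0.43 in bone and −0.28 in lung, JAK1 by 0.01 and −0.61, JAK3 by −0.29 and 0.44, and TYK2 by 0.23 and 0.12, with adjusted p-values of 0.109 or more. JAK2 in lung was 0.85 (adjusted p = 0.0749). The inhibitors SOCS1 (−0.84 in bone, −0.33 in lung) and SOCS3 (−0.04 and 0.16) did not pass. TGFB1, a cytokine gene that IL13 is described as inducing through IL13RA2 in macrophages, differed by −0.34 in bone and −0.17 in lung, and CHI3L1, a chitinase-like ligand of IL13RA2, by −0.32 and 1.37 (adjusted p = 0.747 and 0.125). CHI3L1 was above background on 4 of 19 arrays. TMEM219 was not analysed here. Over the 33 genes the median difference was −0.0026 in bone and −0.05 in lung, against 0.03 and −0.01 over all probe sets, and 0 passed in the ploidy comparison.

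**Figure D5:**
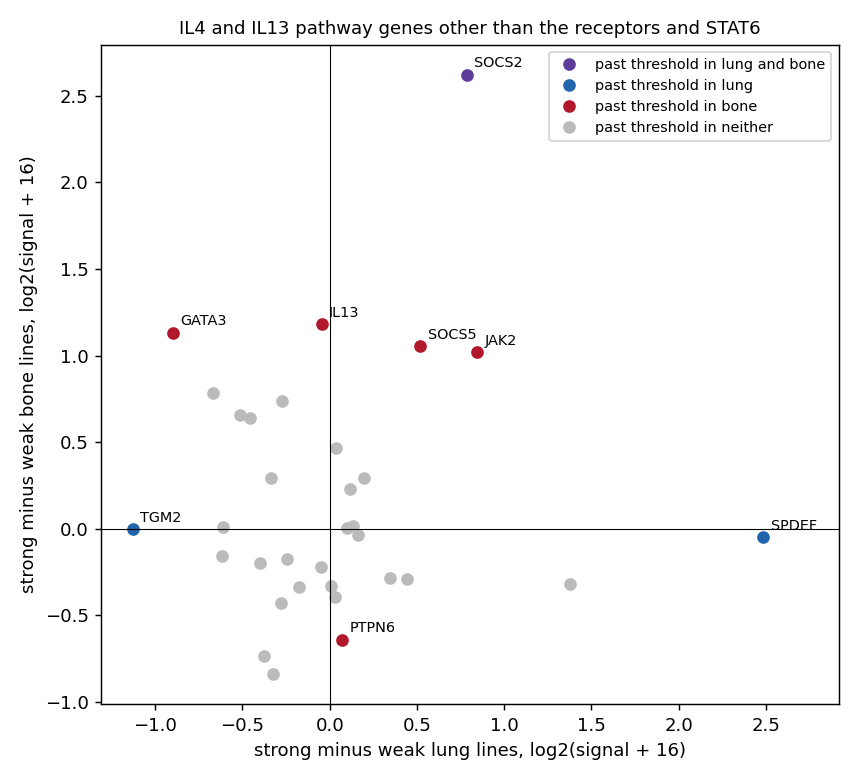
Differences of the 33 tested pathway genes on the log2(signal + 16) scale, strong minus weak lung lines on the horizontal axis and strong minus weak bone lines on the vertical axis, coloured by the comparison in which each passed. SOCS2 is the 1 gene that passed in both, and SPDEF and TGM2 stand at opposite ends of the lung axis near 0 on the bone axis.

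Other cytokine receptors were read from a list of 39 genes, 27 of them tested, which also holds the ligand TSLP and the receptors IL1R1 and IL18R1 of another family. In the lung lines 0 were higher and 5 lower, beside 3.12% higher and 4.7% lower over all probe sets. CSF2RA, the binding chain for granulocyte-macrophage colony-stimulating factor, had means of 134 in strong and 681 in weak lung lines (−2.17, SE 0.35, adjusted p = 0.00191). IFNGR2, a chain of the interferon gamma receptor, had 1128 in strong and 2790 in weak lung lines (−1.27, adjusted p = 7.00e-04). OSMR (−1.33), the type I interferon receptor chain IFNAR2 (−1.19) and IL10RB (−0.73) also fell, with adjusted p-values of 0.0360, 0.0113 and 0.0487. The probe sets of CSF2RA (207085_x_at) and IFNAR2 (204785_x_at) carry the suffix for probes that may match other sequences. In the bone lines the leukaemia inhibitory factor receptor LIFR was higher (1.004, adjusted p = 0.0199) and the interleukin 7 receptor IL7R lower (−1.65, adjusted p = 0.0467). LIFR was below background in all weak bone lines and at least 1.82-fold higher in strong ones. The median over the 27 genes was −0.13 in bone and −0.24 in lung. Of 6 other STAT factors, 4 were tested, STAT3, STAT4, STAT5A and STAT5B, and 0 passed in bone, lung or ploidy by limma. Their smallest adjusted p was 0.0948, for STAT5B in bone.

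The genes whose levels ran most like IL13RA2 were found by Pearson r over the arrays of each set, among 14353 probe sets of 9545 genes. In the second set they were the kinase STK17A (r = 0.97), the splicing-associated XAB2 (0.97), the actin-bundling FSCN1 (0.97), the phosphatase-family PTPRN2 (0.97) and the nucleosome-assembly-family NAP1L3 (0.96). An r over 0.9 was reached by 60 probe sets over those 9 arrays. FSCN1 was 226 to 739 in strong lung lines and 16.6 to 93.1 in weak lung lines. Like IL13RA2 it was lowest among strong lines in 4142, and so were STK17A, XAB2, PTPRN2 and NAP1L3. Since these genes were chosen by r over the same 9 arrays, neither the FSCN1 split nor the low values in 4142 are independent of that choice.

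In the first set the most similar genes were HNRNPH3, NFIB, NFYB, IGF2BP2 and STXBP6, at r = 0.95 to 0.97 over 10 arrays. Their r in the second set was 0.63, 0.58, −0.66, 0.08 and 0.55, in that order. In the first set IL13RA2 was above background only on 1833-Modal, so the first-set values rest on the 1833 pair. STXBP6, for example, was 171 in 1833-Hyper and 372 in 1833-Modal, and 5.20 to 12.7 in strong bone lines. The genes with the highest lower value of both sets were SNTB1 (0.90 and 0.90), RCN2 (0.88 and 0.88), FBLN1 (0.90 and 0.86), GTSE1 (0.93 and 0.86) and FSCN1 (0.85 and 0.97), each given for the first and then the second set. SNTB1, a syntrophin of the dystrophin complex, was 124 to 175 in strong lung lines and 17.9 to 38.7 in weak lung lines. In the first set it was 232 in 1833-Hyper and 238 in 1833-Modal, against 27.5 in the original 1833 line. FBLN1, an extracellular matrix fibulin, was 142 to 323 in strong lung lines and 21.4 to 70.8 in weak lung lines. Its first-set signals were 259 in 1833-Hyper and 207 in 1833-Modal, against 21.8 in the original 1833 line. The first-set values of these genes rest on the 1833 pair too. Its arrays had spike-in means of 8.69 and 8.50, against 10.3 to 10.6 on the parental and bone arrays. The part of that gap in these values was not tested. As the genes were chosen by r, their split between strong and weak lung lines is not independent of the choice. The arrays share lines of origin and group, and a high r over so few arrays is a description.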

How the data were processed

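RNA of 19 lines was measured once each on an Affymetrix array of 22283 probe sets, labelled with biotin per the labels' protocols. The authors deposited linear ratios; how they were normalised is not given in the sources used here and was read from the values. After division by 1 factor per array and 1 divisor per probe set, fitted separately in 2 array sets, the values fell on a whole-number grid of 0.1 signal units. Signals were so recovered for 22283 probe sets (100%), and the log2 divisors of both sets correlated at r = 0.972. A probe set whose steps all share a common factor would be recovered at a fraction of its level, which leaves differences within a set as they are at high signal. The trimmed mean signal lay between 323 and 361 for the ploidy arrays and near 499.9 for the parental array. The design had allowed for such recovery.

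Arrays were scaled to a median of 143.3, and 16282 probe sets were kept that exceeded the 40th percentile of at least 2 arrays, with 68 control probe sets left out. Genes were named from the platform annotation, under which 19071 probe sets had 1 symbol, 1043 several and 2169 none. limma 3.58.1 in R 4.3.3 (lmFit, eBayes) was fitted to log2(signal + 16) at probe set level. The 14 metastatic lines shared 1 fit with 4 group means. The 4 ploidy arrays were fitted with line of origin, given by the labels, as a replicate block. The number of arrays limits the precision. The fits were tested on simulated data. Alternatives changed the offset, scaling, filter, model and lines.

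The members, lists and rules were chosen with earlier results of these data known. Named genes were the members, up to 8 list genes past the threshold per comparison, fixed ligands, chains, kinases and related genes, and the 5 genes most like IL13RA2 in each set and in both. Promoter sequences are RefSeq's, GRCh38.p14. Python 3.11.15, numpy 2.4.6 and pandas 2.3.3 were used.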

Additional observations from a re-analysis of the deposited data

Results flagged for a closer look

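The contrast of strong against weak lines was tested for a difference between the lung and the bone lines on 8 probe sets, and 3 differed by limma. IL13RA2 206172_at differed by 4.86 (adjusted p = 0.00886), with strong minus weak at 4.98 in the lung lines and 0.11 in the bone lines, where its signal was below background in every line. IL4R 203233_at differed by 1.58 (adjusted p = 0.00878), with 0.27 in the lung lines and −1.30 in the bone lines. IL13RA1 211612_s_at differed by −0.94 (adjusted p = 0.0193), with −0.51 in the lung lines and 0.43 in the bone lines, of which neither passed alone. Lung and bone lines lie in separately divided array sets, each difference being taken within its set. No line stood apart from the other 3 of its group in the 16 groups of 4 lines examined by Dixon's criterion.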

How the results depend on the processing

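IL13RA2 in the lung lines and IL4R in the bone lines passed under every alternative run, at 4.004 to 5.77 and −1.38 to −1.17, and when each line was left out, at 4.46 to 5.84 and −1.50 to −1.10. IL4R in the lung-minus-bone test also passed throughout, at 1.41 to 1.73 and, with lines left out, 1.38 to 1.78. For STAT6 201331_s_at in bone, the difference with only the 7 bone lines fitted was −0.83 (adjusted p = 0.0658), and it was −0.93 to −0.63 with lines left out, passing in 3 of 7. IL13RA1 201887_at in lung was lost with no filter (−0.70), with deposited ratios (−0.71), with 19 arrays (−0.70) and with only the lung lines (−0.70), and in 7 of 7 fits without 1 line (−0.80 to −0.52). In the lung-minus-bone test with 19 arrays, IL13RA2 (4.86) and IL13RA1 211612_s_at (−0.94) were lost. With lines left out, the differences were 4.34 to 5.73 for IL13RA2, which passed in all 14, and −1.04 to −0.82 for IL13RA1 211612_s_at, which passed in 13.

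Sign changes were found only among values that had not passed. They were IL13RA2 in bone without 2268 (−0.0231, in a range up to 0.295 with lines left out), STAT6 201331_s_at in lung without SCP26 (−0.0434, in a range up to 0.285), IL4R between ploidy sublines under quantile normalisation (6.43e-05) and in the 1833 pair alone (0.39), and in the 4175 pair alone STAT6 201331_s_at (−0.23) and 201332_s_at (−0.0596). Without the replicate block for line of origin, IL13RA2 was at −1.02 between ploidy sublines (adjusted p = 0.9999), and the block changed no call among the members. The causes of these changes were not tested beyond the fewer arrays or probe sets fitted.

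The number of probe sets called was 1713 in bone, 833 to 2022 with lines left out and 1096 of 9546 with 1 probe set a gene. In lung it was 1274, then 764 to 1489, 839 with 1 probe set a gene and 656 with only the lung lines. The lung-minus-bone test called 1774, or 1118 with 1 probe set a gene. The ploidy comparison called 0, or 1 under an offset of 32 or 64, a filter on 4 arrays, 1 probe set a gene, an intensity trend or the 1833 pair alone. Of the calls, 60.8% were higher in bone and 39.1% in the lung-minus-bone test, against 50.8% and 50.2% with arrays scaled to a trimmed mean. In lung 508 calls were higher and 766 lower, against 798 and 853 with a trimmed mean and 574 and 419 without SCP6.

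Each line had 1 array, so the spread between cultures of a line is unknown. The parental line and each ploidy subline are single arrays, and the ploidy arrays had lower spike-in and mean signals than the rest. IL13RA2 was below background in 12 of 19 arrays, where its order is not resolved.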

Other observations

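The ploidy sublines differed from the original lines they came from in other members than IL13RA2. IL13RA1 210904_s_at was 775 in 4175-Hyper and 581 in 4175-Modal, against 212.5 in the original 4175 line, and 437 in 1833-Hyper and 353 in 1833-Modal, against 982 in the original 1833 line. The sublines thus lay above the original in one lineage and below it in the other. The gaps were smaller for IL13RA1 201887_at. It was 509 in 1833-Hyper and 445 in 1833-Modal, against 527 in original 1833. In the other lineage it was 1055 in 4175-Hyper and 947 in 4175-Modal, against 678 in original 4175. IL4R was 219 in 4175-Hyper and 305 in 4175-Modal, against 491.5 in original 4175, and 387 in 1833-Hyper and 291 in 1833-Modal, against 235 in original 1833. STAT6 201331_s_at was higher in both lineages, at 2251 in 4175-Hyper and 2642 in 4175-Modal, against 1439 in original 4175, and 2022 in 1833-Hyper and 1500.2 in 1833-Modal, against 1162 in original 1833. These are single arrays with no test, and the spike-in means of the ploidy arrays were lower than those of the original lines.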
